A study of Rattus norvegicus with 6 samples.

Results

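Mitochondrial ribosomal protein genes were taken as every entry of the expression table whose symbol begins with Mrpl or Mrps followed by a number, in any case of letters. This gave 78 entries of 27217, with 49 Mrpl and 29 Mrps entries. RNA sequencing compared 3 libraries of RCS cells with 3 libraries of neonatal rat rib. RCS is a cell line derived from a cartilage tumour of the rat and keeps chondrocyte features. The sources used here give no strain, sex, treatment or passage. The RCS libraries come from 1 line and say nothing of other chondrosarcomas, and a rib piece can hold cartilage, bone, muscle, blood and fat.

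Mitochondrial ribosomes translate the few proteins encoded in mitochondrial DNA, which are parts of the respiratory chain or the ATP synthase. Their own proteins are encoded in the nucleus, made in the cytosol and imported, and are named by subunit, Mrpl for the large and Mrps for the small. Some have a counterpart in bacterial ribosomes, and others are found only in mitochondrial ribosomes. The names are partly historical. Mrps30 and Mrps18a encode proteins of the large subunit, and Mrps36 encodes a subunit of the oxoglutarate dehydrogenase complex and is kept here because it meets the symbol rule.

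Levels are given as normalized counts, the reads of a gene after division by a factor for its library. They were read as not divided by gene length, so they compare libraries and not genes. The values corresponded to 6000000 to 8520000 reads per RCS library and 5320000 to 7490000 per rib library. Of 8 chondrocyte markers, Matn1 and Comp were higher in RCS cells, Col2a1 and Col11a2 were lower and 4 were neither. The 11 skeletal muscle markers summed to 51821, 43137 and 28461 normalized counts in rib tissue replicates 1, 2 and 3, against 137 to 177 in RCS cells, and 1 of them, Myh1, was listed at 0 in every RCS library. All 10 cell cycle markers were higher in RCS cells, with a median log2 difference of 1.49, and their sum was 11607 to 12996 there against 4694 to 5477. Whether muscle RNA or cell division had a part in the values that follow was not tested. In such bulk samples, fewer cells of a type and less RNA per cell cannot be told apart.

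Most mitochondrial ribosomal protein genes were higher in RCS cells, mainly by less than 2-fold. All but 2 of the 78 entries passed the filter on low values, and these 76 reached a normalized count of 1 in each of the 6 libraries. In limma with Benjamini-Hochberg adjustment over 16809 genes, 61 of the 76 were called higher, 3 lower and 12 neither. Over all genes tested, 32.9% were called higher and 43.6% lower. The median log2 difference, RCS cells minus rib tissue, was 0.71 (1.63-fold) for the 76 genes and -0.15 for all genes tested. With only genes at a CPM of 5 or more kept, which all 76 were, 38.8% of 13075 genes were higher and 39% lower, and the counts among the 76 stayed at 61 and 3.

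The middle 50% of the 76 differences lay between 0.45 and 0.92 on the log2 scale, with an SD of 0.47 and a full range of -0.65 to 2.01. At least 2-fold higher in RCS cells were 16 genes, where 14.1% of all genes tested were, and 0 were 2-fold lower, where 33.1% were. In 64 genes every RCS library lay above every rib library, and in 4 every RCS library lay below. The same held for 34.4% and 44.5% of all genes tested.

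**Figure D1:**
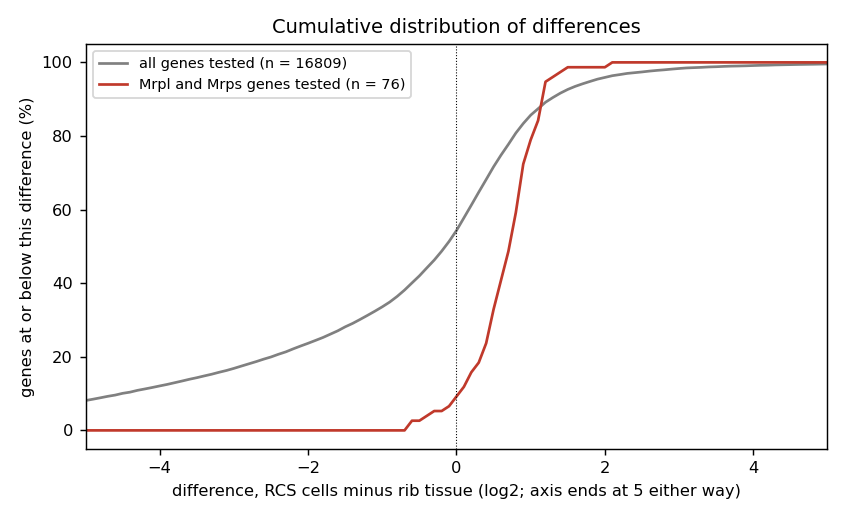
Share of genes (y axis, percent) at or below each log2 difference, RCS cells minus rib tissue (x axis), for all 16809 genes tested and for the 76 tested Mrpl and Mrps genes. The Mrpl and Mrps curve is steep around its median of 0.71, while the curve of all genes is broad, with a median of -0.15.

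Summed over the 78 entries, these genes took 0.407%, 0.412% and 0.449% of the normalized counts of RCS cells replicates 1, 2 and 3. Their share was 0.218%, 0.230% and 0.210% in rib tissue replicates 1, 2 and 3, so the groups did not overlap. The median SD between replicates was 0.077 in RCS cells and 0.13 in rib tissue, against 0.11 and 0.23 for all genes tested. All genes tested include genes of much lower counts, so these SDs were not compared at matched levels. Among the 76 genes tested here, the fewest reads behind a value were 32, in rib tissue replicate 2, and counting error is largest for such low genes.

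Other scalings of the libraries moved these values. The median of all genes rose by 0.47 under quantile normalization, 0.29 under median scaling and 0.18 under cyclic loess. The share of called genes that were higher in RCS cells was 43.0% as reported, 61.9% under quantile normalization and 53.5% under median scaling. For the 76 genes, quantile normalization gave 69 higher and 2 lower with a median difference of 0.90, beside an all-gene median of 0.32. Median scaling gave 70 and 2 with a median of 0.998, beside 0.14, and cyclic loess gave 53 and 3 with a median of 0.50, beside 0.03.

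**Figure D2:**
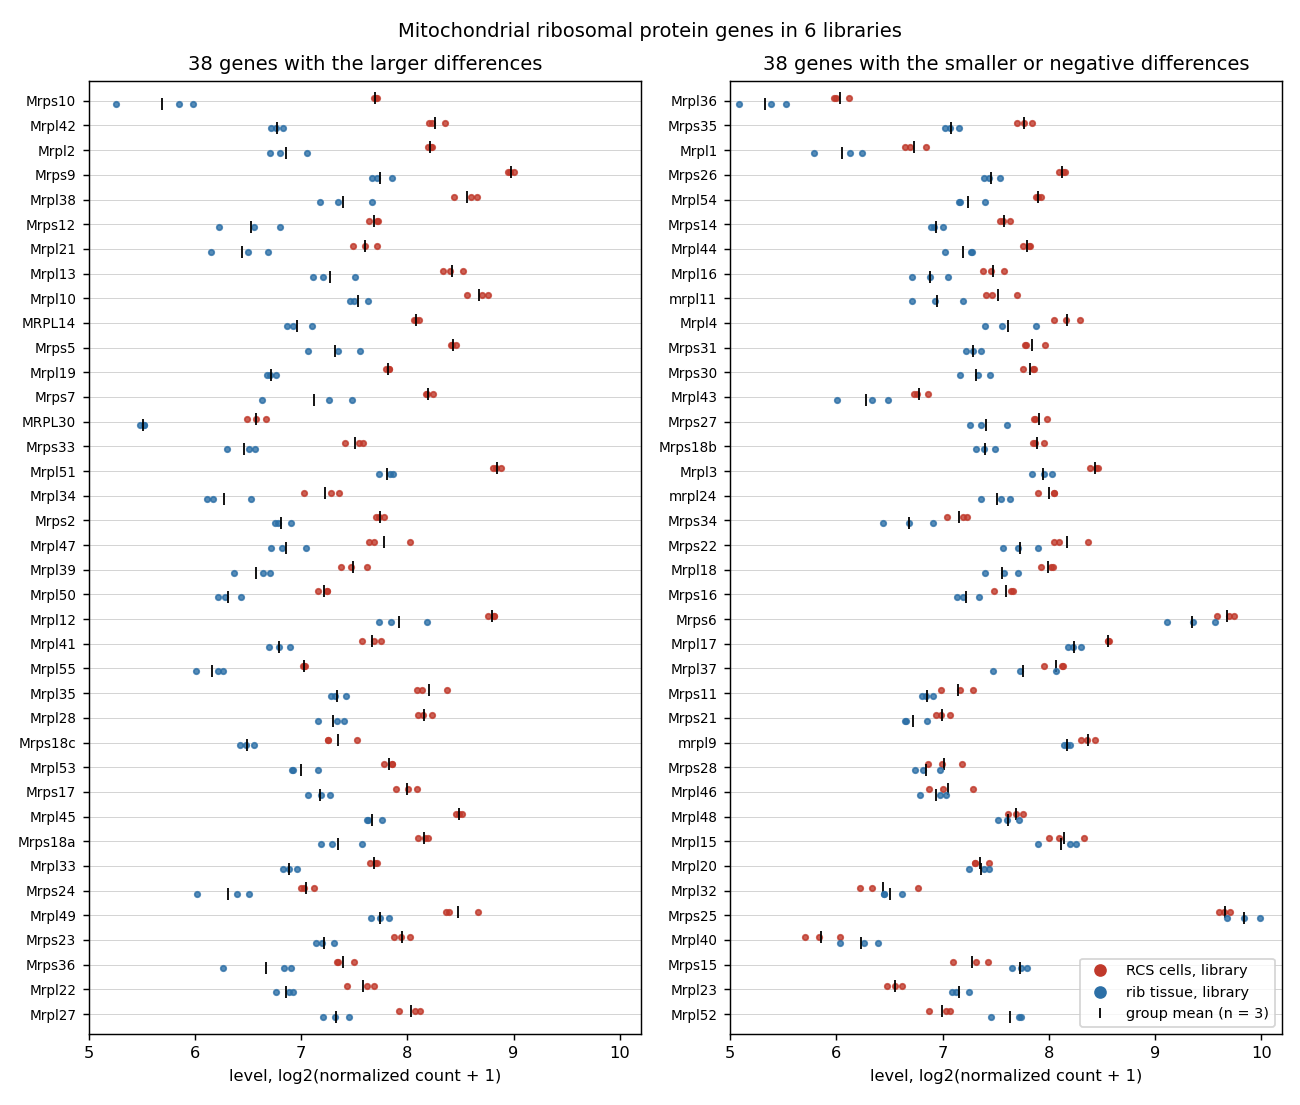
Level of each of the 76 tested genes, as log2(normalized count + 1) on the x axis, in the 3 RCS libraries and the 3 rib libraries (points), with the group mean as a tick (n = 3), ordered by difference. Genes at the head of the order have every RCS point right of every rib point, and Mrps15, Mrpl23 and Mrpl52 at its end show the opposite order.

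The largest differences were found in both subunits. Mrps10, a protein of the head of the small subunit, stood at 204, 207 and 208 normalized counts in RCS cells replicates 1, 2 and 3 and at 62.0, 56.5 and 37.1 in rib tissue replicates 1, 2 and 3. The RCS libraries were nearly equal and all lay far above the rib libraries, of which the third was lowest. The log2 difference was 2.01 (SE 0.19, 4.01-fold), with a limma adjusted p (Benjamini-Hochberg) of 2.45e-05. Mrpl42, a mitochondria-specific protein of the large subunit, stood at 299.6, 293 and 326 in RCS cells and 113, 108 and 104 in rib tissue. Here both groups were tight and apart, by 1.49 (SE 0.09, 2.81-fold). Mrpl2, which lies near the catalytic centre of the large subunit, stood at 299, 291 and 297 against 132, 103 and 110.1. Its groups were apart by 1.36 (SE 0.11, 2.57-fold).

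Mrps9, a small subunit protein with a bacterial counterpart, stood at 512, 493 and 499.6 normalized counts in RCS cells and 209, 230.2 and 202 in rib tissue. Mrpl38, a mitochondria-specific protein of the large subunit, stood at 386, 345 and 402 against 202, 162 and 144. For Mrps12, a decoding centre protein tied to the accuracy of translation, the values were 208, 209.8 and 198 against 110.5, 92.8 and 74.0. In none of the 3 did the groups overlap, and rib tissue replicate 3 was lowest in each. The log2 differences were 1.23, 1.17 and 1.16 (SE 0.08, 0.13 and 0.15), with limma adjusted p (Benjamini-Hochberg) of 3.19e-06, 7.56e-05 and 0.000164.

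Lower in RCS cells were 3 genes. Mrpl52, a mitochondria-specific protein of the large subunit, stood at 116, 130.02 and 133 normalized counts in RCS cells and 174, 209.5 and 213 in rib tissue. Mrpl23, whose bacterial counterpart sits at the mouth of the exit tunnel, stood at 88.1, 92.6 and 97.3 against 138, 151 and 135. Mrps15, an RNA-binding protein of the small subunit, stood at 158, 136 and 171 against 222, 213 and 200.1. In these 3 the groups were apart with RCS cells below. The log2 differences were -0.65, -0.61 and -0.45 (SE 0.12, 0.11 and 0.11), with limma adjusted p (Benjamini-Hochberg) of 0.00119, 0.00126 and 0.00654. Mrpl52 was called lower under each of the 14 alternatives. The Mrpl23 call was lost under quantile normalization (-0.26) and the Mrps15 call under median scaling (-0.16).

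Promoters of 2 genes from each end of this order are shown so that their letters can be compared. RefSeq gave a promoter for 62 of the 76 genes, on the build GRCr8, and the 250 bases before each start site were searched on both strands for CCGGAAG (bound by ETS factors such as GABPA), GCATGCG (a core bound by NRF1) and ATGGCGG (a core bound by YY1). Capitals mark a match on either strand. The promoters are Mrps10 (chr9:21122454-21122703, minus strand), Mrpl42 (chr7:32028523-32028772, minus strand), Mrpl23 (chr1:207116680-207116929, plus strand) and Mrpl52 (chr15:31852686-31852935, plus strand), each printed 5′ to 3′ along its gene.
Mrps10: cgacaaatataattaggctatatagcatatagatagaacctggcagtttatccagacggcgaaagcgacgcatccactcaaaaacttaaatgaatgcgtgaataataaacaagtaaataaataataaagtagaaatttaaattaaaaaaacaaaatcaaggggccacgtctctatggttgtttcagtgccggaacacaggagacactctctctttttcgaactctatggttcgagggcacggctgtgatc
Mrpl42: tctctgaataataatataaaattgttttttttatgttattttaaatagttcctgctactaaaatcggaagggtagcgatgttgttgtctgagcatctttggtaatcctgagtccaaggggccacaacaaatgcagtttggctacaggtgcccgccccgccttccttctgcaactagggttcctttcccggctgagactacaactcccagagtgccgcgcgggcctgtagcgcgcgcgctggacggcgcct
Mrpl23: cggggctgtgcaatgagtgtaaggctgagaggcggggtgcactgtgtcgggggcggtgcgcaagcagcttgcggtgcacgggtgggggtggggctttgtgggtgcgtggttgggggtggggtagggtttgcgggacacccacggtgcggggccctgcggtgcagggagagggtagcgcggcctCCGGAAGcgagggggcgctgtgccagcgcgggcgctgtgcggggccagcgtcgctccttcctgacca
Mrpl52: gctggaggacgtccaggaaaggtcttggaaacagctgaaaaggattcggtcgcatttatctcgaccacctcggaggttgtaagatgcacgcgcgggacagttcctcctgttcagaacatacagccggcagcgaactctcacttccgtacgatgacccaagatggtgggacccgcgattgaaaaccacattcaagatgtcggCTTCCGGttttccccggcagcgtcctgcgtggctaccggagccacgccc
The Mrps10 and Mrpl42 windows hold none of the 3 motifs. The windows of Mrpl23 and Mrpl52, both lower in RCS cells, each hold the ETS letters, beginning 67 and 49 bases before the start site. The window of Mrps15, the other gene called lower, holds none of the 3 motifs.

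Over the 62 promoters, the ETS letters were in 11 (17.7%), the NRF1 letters in 6 (9.68%) and the YY1 letters in 0, and 17 held any of them, so no promoter held more than 1 kind and no matches of different motifs overlapped. The shares among 12116 promoters of all genes tested were 13.3%, 5.20% and 3.62%. The ETS letters were in 8 of 49 genes called higher (16.3%) and in 3 of the 13 others (23.1%). Any of the motifs was in 13 of 49 genes called higher (26.5%), in 4 of the 13 others (30.8%) and in 20.3% of all genes tested. Whether these shares differ was not tested. A match is a run of letters and not a bound site. Bases after the start site were not searched, so the YY1 count of 0 covers only these windows.

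Among large subunit genes with a bacterial counterpart, 24 of 29 were higher, 1 lower and 4 neither, with a median difference of 0.71. The mitochondria-specific large subunit genes came to 15 of 20 higher, 1 lower and 4 neither, with a median of 0.77. Of the small subunit genes with a bacterial counterpart, 12 of 16 were higher, 1 lower and 3 neither (median 0.78), and of the mitochondria-specific ones 9 of 10 were higher and 1 neither (median 0.53). By subunit, 39 of 49 large and 21 of 26 small subunit genes were higher, with medians of 0.72 and 0.66. The difference between these sets was not tested. Mrps36, the dehydrogenase subunit, stood at 161, 161 and 179 normalized counts in RCS cells and 119, 113 and 75.8 in rib tissue, and was higher by 0.72 (SE 0.18).

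**Figure D3:**
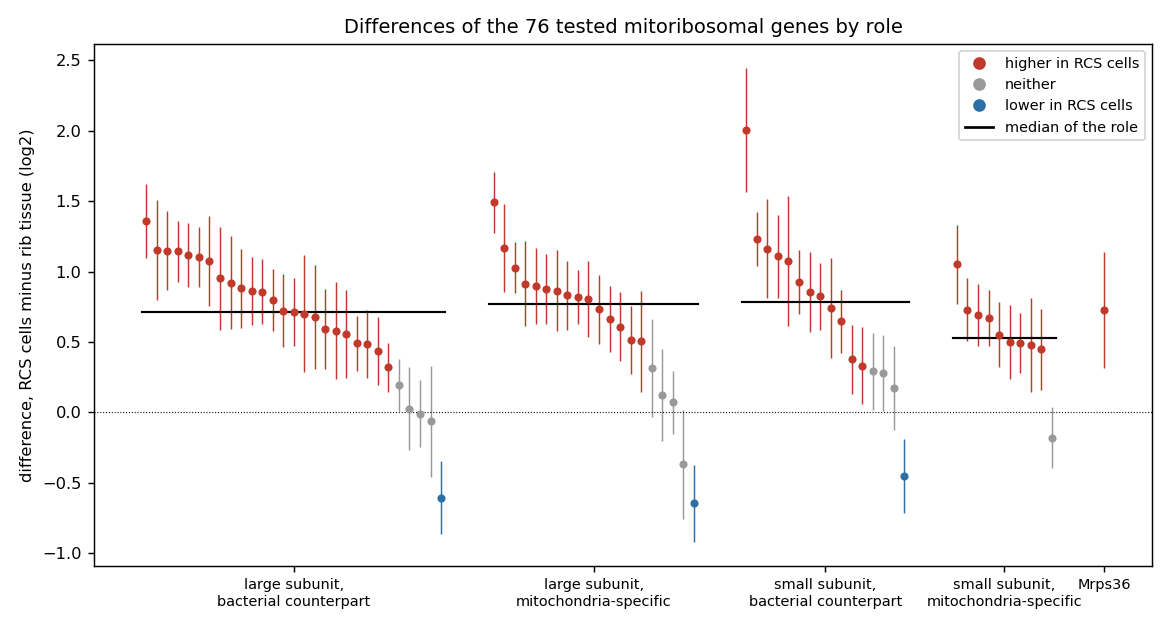
Log2 difference, RCS cells minus rib tissue, of each of the 76 tested genes (points) with its 95% interval from limma (bars), grouped by role, with the median of each role of more than 1 gene as a line. The medians lie between 0.53 and 0.78, and each of 3 roles holds 1 gene called lower.

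Beside Mrpl2, the large subunit genes with a bacterial counterpart called at least 2-fold higher were Mrpl21 (1.15), Mrpl13 (1.15), Mrpl10 (1.14), MRPL14 (1.12), Mrpl19 (1.10) and MRPL30 (1.07). Mrpl10 anchors the flexible stalk that recruits translation factors, and Mrpl12, the stalk protein itself, was higher by 0.88. The others called higher ran from Mrpl34 (0.95) through Mrpl47, Mrpl35, Mrpl28, Mrpl33, Mrpl22, Mrpl27, Mrpl36, Mrpl1, Mrpl16, mrpl11, Mrpl4, Mrpl3, mrpl24 and Mrpl18 to Mrpl17 (0.32). Mrpl17 stood at 375, 376 and 377 normalized counts in RCS cells and 316, 298 and 289.7 in rib tissue. The RCS libraries were nearly equal, and the small difference lay outside the spread of both groups. Its call was lost under cyclic loess (0.14).

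Mitochondria-specific large subunit genes were led, after Mrpl42 and Mrpl38, by Mrpl51 (1.03), and ran on through Mrpl39, Mrpl50, Mrpl41, Mrpl55, Mrpl53, Mrpl45, Mrpl49, Mrpl54 and Mrpl44 to Mrpl43 (0.50). Mrpl45, which sits at the exit tunnel by the inner membrane, was higher by 0.82. Mrps30, a large subunit protein despite its name, stood at 216, 232 and 230.2 normalized counts in RCS cells against 160.3, 173 and 142 in rib tissue. Its groups did not overlap and were 0.51 apart (SE 0.10).

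Small subunit genes at least 2-fold higher, beside Mrps10, Mrps9 and Mrps12, were Mrps5 (1.11), Mrps7 (1.07) and the mitochondria-specific Mrps33 (1.05). Mrps2, Mrps17, Mrps24, Mrps14 and Mrps16 followed among those with a bacterial counterpart, at 0.93 to 0.38. Mrps23, Mrps35, Mrps26, Mrps31, Mrps27, Mrps34 and Mrps22 followed among the mitochondria-specific ones, at 0.73 to 0.45. The smallest called difference of the small subunit was that of Mrps6. It stood at 859, 829 and 767 normalized counts in RCS cells against 553, 756 and 656 in rib tissue. The groups came close without overlap, with a log2 difference of 0.33 (SE 0.12) and a limma adjusted p (Benjamini-Hochberg) of 0.0313. The call was lost under cyclic loess, with no filter, without the intensity trend and without RCS cells replicate 1 or 2 or rib tissue replicate 1 or 3, and the difference was 0.21 without rib tissue replicate 1. In RefSeq, Mrps6 spans the inositol transporter gene Slc5a3 on the same strand, which matched no entry. Reads in the bases that both genes share cannot be told apart.

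The 3 Mrps18 genes form a family related to 1 bacterial protein, with Mrps18a in the large subunit and Mrps18b and Mrps18c in the small. In the counts by role, only Mrps18c was taken as having the bacterial counterpart. Mrps18a and Mrps18b were counted as mitochondria-specific despite this relation. All 3 were higher in RCS cells. Mrps18c stood at 151, 151 and 184 normalized counts in RCS cells against 84.9, 88.4 and 93.0 in rib tissue. For Mrps18a the values were 293, 287 and 273 against 189, 156 and 144, and for Mrps18b they were 232, 230.1 and 247 against 158, 167 and 179. The groups overlapped in none of them. Log2 differences were 0.85, 0.81 and 0.49 (SE 0.12, 0.12 and 0.09), with limma adjusted p (Benjamini-Hochberg) of 0.000295, 0.000292 and 0.0014. Whether the 3 differences differ from each other was not tested. Their promoters are shown because the family carries different letters upstream, for Mrps18a (chr9:22367381-22367630, minus strand), Mrps18b (chr20:2842756-2843005, plus strand) and Mrps18c (chr14:9122907-9123156, minus strand), from the same RefSeq build with matches in capitals.
Mrps18a: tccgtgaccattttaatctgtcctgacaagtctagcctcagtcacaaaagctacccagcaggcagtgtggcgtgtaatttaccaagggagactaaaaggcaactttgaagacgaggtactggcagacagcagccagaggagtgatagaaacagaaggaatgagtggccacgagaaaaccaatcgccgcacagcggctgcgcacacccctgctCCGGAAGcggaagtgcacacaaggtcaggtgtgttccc
Mrps18b: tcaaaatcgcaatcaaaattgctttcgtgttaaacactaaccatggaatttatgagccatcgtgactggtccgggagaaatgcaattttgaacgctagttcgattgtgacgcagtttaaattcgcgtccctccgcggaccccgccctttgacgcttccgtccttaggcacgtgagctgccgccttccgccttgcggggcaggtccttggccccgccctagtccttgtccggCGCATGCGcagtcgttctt
Mrps18c: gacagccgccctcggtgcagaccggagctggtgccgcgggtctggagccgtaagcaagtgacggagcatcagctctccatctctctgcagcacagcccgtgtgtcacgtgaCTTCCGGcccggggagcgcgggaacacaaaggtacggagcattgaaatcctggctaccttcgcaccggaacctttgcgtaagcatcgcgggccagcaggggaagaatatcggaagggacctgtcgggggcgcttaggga
Mrps18a and Mrps18c hold the ETS letters, and Mrps18b holds the NRF1 letters on both strands at overlapping bases.

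Neither higher nor lower were 12 genes. Mrpl37, Mrps11, Mrps21 and mrpl9 had differences of 0.31, 0.29, 0.28 and 0.19, with limma adjusted p (Benjamini-Hochberg) of 0.0868, 0.0521, 0.0578 and 0.0524. Mrps11 stood at 142, 125 and 155 normalized counts in RCS cells against 111, 119 and 114 in rib tissue, and mrpl9 at 346, 314 and 327 against 287, 281 and 294. In Mrps11, Mrps21 and mrpl9 every RCS library lay above every rib library. All 4 were called higher under quantile normalization and median scaling. Mrpl37, at 279, 279 and 247 against 267, 211 and 177, overlapped, and was called higher without rib tissue replicate 1 (0.47).

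Mrps28 (0.17, 95% interval -0.13 to 0.47), Mrpl46 (0.12, -0.20 to 0.45), Mrpl48 (0.07, -0.15 to 0.29) and Mrpl15 (0.03, -0.27 to 0.32) had intervals on both sides of 0. The same held for Mrpl20 (-0.01, -0.25 to 0.23), Mrpl32 (-0.06, -0.46 to 0.33), whose protein is matured by an inner membrane protease, Mrps25 (-0.18, -0.40 to 0.04) and Mrpl40 (-0.37, -0.75 to 0.02). The direction or the call of these 8 genes moved with the scaling. Mrps28 and Mrpl46 were called higher under quantile normalization (0.54 and 0.46) and median scaling (0.46 and 0.41), and Mrpl48 and Mrpl15 under median scaling (0.36 and 0.32), while all 4 had negative, uncalled differences under cyclic loess. Mrpl20 was called higher under median scaling (0.28) and turned positive without a call under quantile normalization. Mrpl32, at 73.5, 79.9 and 108 normalized counts in RCS cells against 86.2, 97.2 and 86.3 in rib tissue, was called higher under quantile normalization (0.57) and turned positive without a call under median scaling. Mrps25 stood at 804, 778 and 835 normalized counts in RCS cells and 819.6, 912 and 1017 in rib tissue, was called lower without rib tissue replicate 1 (-0.26) and turned positive without a call under median scaling. Mrpl40 stood at 51.3, 56.2 and 64.3 against 75.6, 83.2 and 64.3, and its call went both ways, lower without rib tissue replicate 3 (-0.47) and higher under quantile normalization (0.53).

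Of the genes with the lowest mean counts, MRPL30 stood at 94.5, 89.0 and 100.4 normalized counts in RCS cells against 45.0, 43.6 and 44.7 in rib tissue. Mrpl36 stood at 61.8, 62.8 and 68.5 against 40.6, 32.8 and 45.0, and Mrpl1 at 99.4, 102 and 114 against 69.0, 74.6 and 54.2. All 3 were higher in RCS cells without overlap. A second entry of MRPL30 and a second of MRPL36 were listed at 0 in every library and were not tested. RefSeq names 40 pseudogenes after 23 of these genes, 9 of them after Mrpl30. How reads with several matches were counted is not given here, so the levels of these genes are uncertain.

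Some proteins of the mitochondrial ribosome carry other symbols. A list of 9 genes holds such proteins, and also Oxa1l and Slirp, which do not encode proteins of the ribosome itself. Of the 9 listed genes, 3 were called higher, 1 lower and 5 neither, and the median difference was 0.27. The share higher, 33.3%, was near the 32.9% of all genes tested, of which 43.6% were lower. Oxa1l (-0.08) and Slirp (0.24) were among those called neither. Ptcd3, of the small subunit, stood at 1063, 962 and 983 normalized counts in RCS cells against 486, 532 and 595 in rib tissue, which is 0.90 higher (SE 0.09). Dap3, a GTP-binding protein of the small subunit, stood at 359, 359.7 and 366 against 381, 292 and 393. Its groups overlapped, with a difference of 0.04 (SE 0.12). Gadd45gip1, a large subunit protein, was lower in RCS cells, at 70.3, 67.0 and 72.1 against 173, 167 and 139 (-1.18, SE 0.13).

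Factors that run and build the ribosome were mostly higher in RCS cells, where 32.9% of all genes tested were higher and 43.6% lower. Of 15 translation factors, 11 were higher, 2 lower and 2 neither (median 0.62). Lrpprc, which stabilises mitochondrial messenger RNA, was higher by 0.71, the elongation factor gene Gfm1 by 0.55 and Taco1, an activator of COX1 translation, by 1.31 (SE 0.12). Mtres1, listed as 1700021F05Rik, was lower, at 60.4, 60.7 and 62.7 normalized counts in RCS cells against 123, 118 and 92.6 in rib tissue. Of 29 assembly factors, 23 were higher, 1 lower and 5 neither (median 0.68). Mrm1, a methyltransferase of the large ribosomal RNA, stood at 541, 518 and 506 against 116, 111 and 140.3, without overlap and 4.26-fold higher (log2 2.09, SE 0.11). The helicase gene Dhx30 was higher by 0.52 and the RNA granule gene Grsf1 by 0.32, and Mterf4, listed as Mterfd2, was lower (-0.59, SE 0.15).

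Genes of mitochondrial DNA upkeep and transcription came to 9 of 10 higher and 1 neither, with a median of 0.84. Polrmt, the mitochondrial RNA polymerase, stood at 683, 697 and 617 normalized counts in RCS cells against 314, 171 and 165 in rib tissue. The groups were apart by 1.68 (SE 0.23), with rib tissue replicate 1 above the other rib libraries. The polymerase gene Polg was higher by 0.45 and the protease gene Lonp1 by 0.99. Of 15 genes taken as measures of mitochondrial mass, 12 were higher and 3 neither (median 0.66). The chaperone gene Hspd1 stood at 1.61, the citrate synthase gene Cs at 0.40 and the cristae gene Immt at 0.66. Beside both lists, 32.9% of all genes tested were higher.

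Of 11 regulators of mitochondrial genes, 3 were higher (27.3%), 4 lower and 4 neither (median -0.06), beside 32.9% higher and 43.6% lower over all genes tested. Myc, a transcription factor of cell growth, stood at 832, 655 and 607 normalized counts in RCS cells against 256, 209 and 252 in rib tissue, 1.53 higher (SE 0.14). Perm1, a muscle regulator listed as RGD1304931, stood at 2.81, 4.21 and 6.66 against 356, 336 and 143. Rib tissue replicate 3 had the lowest Perm1 of the rib libraries. Its sums of muscle, erythroid, adipocyte, myeloid, bone and cell cycle markers were also the lowest, but not its sum of chondrocyte markers. Whether these values are linked was not tested. The coactivator genes Ppargc1a (-5.28, SE 0.57), Ppargc1b (-3.82, SE 0.32) and Pprc1 (-0.31, SE 0.12) were lower. Ppargc1a stood at 2.18, 0 and 2.83 normalized counts in RCS cells against 108, 129 and 49.3 in rib tissue. Of the factors named with the promoter motifs, Nrf1 (0.39, SE 0.13) and Gabpa (0.38, SE 0.08) were higher. Gabpb1, in the same list and partner of Gabpa by name, was called neither (-0.06, SE 0.11). Yy1 had a difference of 0.15 (SE 0.07) that did not pass the test.

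**Figure D4:**
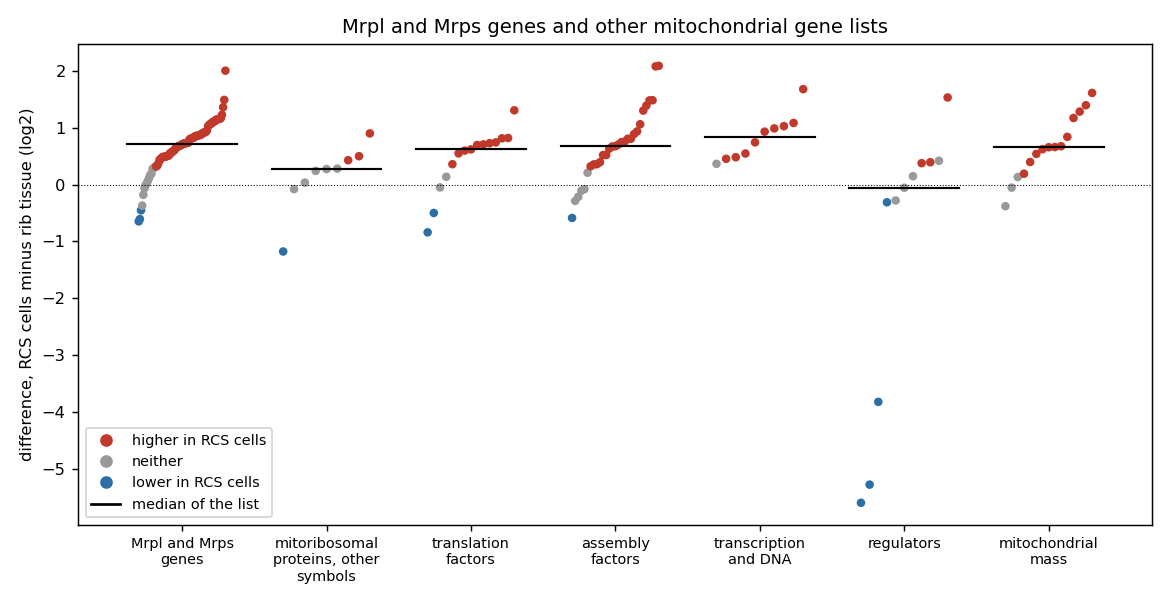
Log2 difference, RCS cells minus rib tissue, for the 76 Mrpl and Mrps genes and for 6 other lists (points, coloured by call), with the median of each list as a line. Medians lie at 0.62 to 0.84 for translation factors, assembly factors, transcription and DNA upkeep and mitochondrial mass, and at -0.06 for the regulators. The median is 0.27 for mitoribosomal proteins with other symbols, a list that also holds Oxa1l and Slirp.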

How the data were processed

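Sample titles gave the group and the number of each replicate. Which cultures or animals these came from is not stated, so p-values cover the spread between libraries, which may be technical. The deposited table holds log2 values made by the authors. Their low values fall on steps, so each was read as log2 of reads over a library factor, and normalized counts up to 1 are listed as 0. CASAVA 1.8, DESeq and rn5 are named, with no role, in the submitters' processing notes. The aligner, the counting rule and its use of strand were not found in these sources.

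The test was limma 3.58.1 (R 4.3.3) on values transformed as log2(normalized count + 1) (trended empirical Bayes, two-sided). The 16809 genes tested had a value of at least 1 in 3 or more libraries, and a call is a Benjamini-Hochberg adjusted p below 0.05. This scale understates changes of low genes. The fit was also run on simulated data with the same spread in both groups, unlike these libraries. That run checks the code and not the error rates here. Reads per library were estimated as summed normalized counts over the value of 1 read. No libraries were identical (0 pairs). Alternatives were other scalings, a pseudocount of 0.1, other filters, no trend, a replicate block and leaving out each library.

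The genes and lists were chosen with earlier results of these data known. Genes were named by a rule that took the 6 largest differences each way, the 4 highest and 4 lowest means, genes called lower or not tested, the Mrps18 genes, Mrps30 and Mrps36, and of each mitochondrial list the 2 highest means and the largest called difference each way. Genes whose call changed with scaling, the rest within their role, the other called regulators, Gabpb1, Oxa1l and Slirp are named as well. Values by library are given for most of the ribosomal protein genes this rule took and for some list genes, and differences alone for the others. In the lists, 149 names had an entry, by symbol or RefSeq synonym. All 76 tested genes matched RefSeq (GRCr8), 70 by Entrez identifier and 6 by symbol. Marker lists not described with the results came to 5 lower of 6 erythroid, 7 of 8 adipocyte, 8 of 8 myeloid and 6 of 8 bone genes, with 0 higher in each.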

Additional observations from a re-analysis of the deposited data

How the results depend on the processing

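Of the 61 genes called higher in RCS cells, 52 were called higher under all 14 alternatives, and of the 3 called lower only Mrpl52 was. Beside the reported median difference of 0.71, quantile normalization gave 0.90, median scaling 0.998 and cyclic loess 0.50. Leaving out 1 library at a time gave 58 to 62 higher and 3 to 4 lower, with medians of 0.657 to 0.763. Over all genes it gave 4905 to 5540 higher and 6856 to 7306 lower, and 32 to 34 higher and 3 to 4 lower among the translation and assembly factors. There, 1 gene was lower under median scaling and 5 under cyclic loess, against 3. Directions turned for Mrpl20 (0.15 under quantile normalization, 0.28 under median scaling), Mrpl32 (0.57 and 0.23), Mrpl40 (0.53 under quantile normalization), Mrps25 (0.11 under median scaling) and, under cyclic loess, for Mrps28 (-0.016), Mrpl46 (-0.076), Mrpl48 (-0.16) and Mrpl15 (-0.18). With a library left out, Mrpl20 ran from -0.065 to 0.029, Mrpl32 from -0.23 to 0.049 and Mrpl15 from -0.081 to 0.096. The cause was not tested.

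With the replicate number as a block, 62 genes were higher and 3 lower, with a median of 0.71, and Mrpl37 was called higher. Over all genes the block gave 5536 higher and 7340 lower. Deviations of same-numbered libraries correlated at 0.064, -0.076 and 0.047, and not every library correlated best with its own number. These values show no pairing by number, but so few libraries cannot settle whether the numbers pair the samples. Depth limits the low genes of rib tissue, where the fewest reads behind a value were 32.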

Other observations

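Several of these genes share their start region with a gene on the other strand. In RefSeq, 17 of the 62 with a start site had such a head-to-head neighbour within 1000 bases, and all 17 neighbours were tested. The neighbour was higher in RCS cells in 9 and neither in 8. Of the 12 neighbours of genes called higher, 7 were higher too, among them Ncapd2, a condensin gene next to Mrpl51 (0.90 beside 1.03), Helq, a repair helicase gene next to Mrps18c (0.95 beside 0.85), and Eme1, a nuclease gene next to Mrpl27 (2.47 beside 0.71). Counted by pair, both genes were higher in 7 of the 14 pairs with a mitochondrial ribosomal protein gene and at least 1 gene higher (50%). Over all head-to-head pairs of tested genes with at least 1 gene higher, both were higher in 193 of 416 (46.4%), and whether these shares differ was not tested. Mrpl46 and Mrps11 face each other with 234 bases between their starts, and both were called neither (0.12 and 0.29). Hira, a histone chaperone gene, was higher (0.85) beside Mrpl40 (-0.37). The neighbours were named after their values were seen, and pairs were read from GRCr8, which is not the build (rn5) named in the submitters' processing notes.

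In RefSeq, 19 of the 76 genes overlap another gene, 12 of them a tested one. The largest overlaps with tested genes were those of Mrpl10 with Lrrc46 (1.14 and 1.48) and Mrpl16 with Stx3 (0.59 and 0.08). Since the use of strand is not given in the sources used here, reads in the shared bases of such pairs cannot be told apart.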
